A study of Mus musculus with 6 samples.

Results

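Chromatin regions were measured while mouse embryonic fibroblasts (MEFs) became induced pluripotent stem cells (iPSCs). Among them, 2204 autosomal regions were closed in the starting MEFs, open in the first sorted intermediates and also open in the finished iPSCs. They were chosen from their own values. A member had fewer than 25 normalised counts in MEF day 0 and at least 100 in each of day 8, day 9, day 10 and iPSC. They made up 1.01% of the 218231 autosomal regions, out of 223596 regions in all. Day 12 was the only library that took no part in the choice. A normalised count is the number of reads in a region divided by a size factor of the library.

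Reprogramming drives a differentiated cell back to pluripotency by forced expression of a few transcription factors, here Oct4, Sox2, Klf4 and c-Myc. Oct4, Sox2 and Klf4 are known as pioneer factors, since they can bind their sites in closed chromatin and help to open them. In such systems many sites open within days, and enhancers of the pluripotent state are established at different times. ATAC-seq measures this with a transposase, which cuts DNA where chromatin is open and adds adapters to the ends that are then sequenced.

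Each of the 6 time points was 1 library from 20000 cells. All cells were female and came from a cross of Musculus females, whose X chromosome carries a GFP transgene, to Castaneus males. MEF day 0 held transduced fibroblasts sorted for absence of GFP, with an inactive GFP-bearing X chromosome. The intermediates of days 8, 9, 10 and 12 had received doxycycline (2 μg/ml), which induces the lentiviral factors, together with ascorbic acid (50 μg/ml), and were sorted for the surface marker SSEA1, so that they represent the fraction of the culture that carries it. The iPSCs grew from picked colonies after doxycycline and ascorbic acid had been withdrawn. The libraries held 22067333 to 32844411 reads in regions. With 1 library per time point there was no replicate, no p-value was computed, and each difference is one between 2 libraries. Intervals are exact 95% binomial intervals and cover counting error only. The table names regions by row number and chromosome, so neither genes nor sequences are given here, and the labelled cell types were not checked against marker genes. Counts are per region and not per length.

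The members went from near background to clearly open between MEF day 0 and day 8, as the limits require. In MEF day 0 they had 1 to 12 reads with a median of 7 (14.1 normalised counts), and 114 of them were at 1 read, which can stand for 0 or 1. At day 8 the same regions had 111 to 2272 reads with a median of 273.5. The median level went from 248 normalised counts at day 8 to 215 at day 9, then 195.1 at day 10 and 168 at day 12, and stood at 207 in iPSC. The highest level was at day 8 in 1003 members (45.5%), in iPSC in 815 (37.0%) and at day 12 in 47 (2.13%). Day 12 carried no limit in the choice, unlike the other libraries, so the choice itself favours a low day 12. The same counts were not made over all autosomal regions, so they describe the members without a background.

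**Figure D1:**
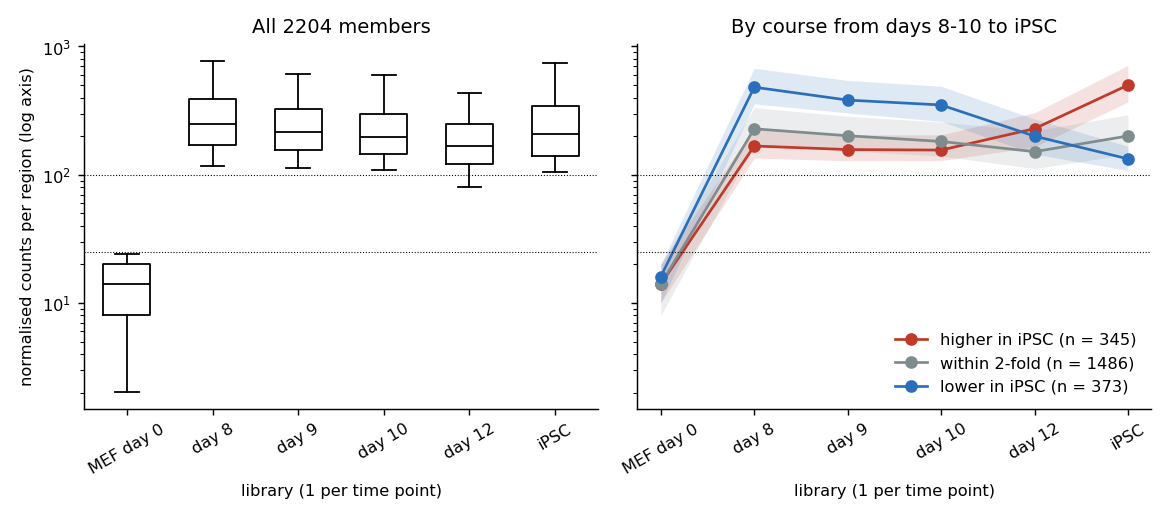
Normalised counts per region (log axis) of the 2204 members in the 6 libraries, as boxes with whiskers from the 5th to the 95th percentile (left), and as medians with quartile bands for the members that were at least 2-fold higher, within 2-fold or at least 2-fold lower in iPSC than at days 8 to 10 (right). Dotted lines mark the limits of 25 and 100. Medians lie between 168 and 248 from day 8 on, with the lowest at day 12.

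The strongest members had a wide step, which follows from how they were chosen and is not typical of the members. The 5 with the highest value in their weakest library among days 8, 9, 10 and iPSC were taken as examples. The region in row 15688 on chromosome 10 had, in the order of MEF day 0, days 8, 9, 10 and 12 and iPSC, 10, 1581, 1572, 1750, 1134 and 833 reads. In normalised counts these were 20.1, 1431, 1122, 1382, 1021 and 1044, the highest day 12 level of all members. It was far above its MEF level in all 5 later libraries, as the choice required for all of these but day 12. Row 56671 on chromosome 13 was at 1 read in MEF day 0 and had 1167, 1236, 1021, 754 and 816 reads in the later libraries, in the same order. Row 19046 on chromosome 10 had 12, 1010, 1298, 1098, 935 and 1215 reads. The remaining 2, row 10995 on chromosome 1 and row 131180 on chromosome 3, had 11 and 9 reads in MEF day 0 and 765 and 851 in iPSC.

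Most regions that opened early were not at 100 or more in iPSC. Of the 88708 autosomal regions below 25 normalised counts in MEF day 0, 8005 (9.02%) reached 100 at days 8, 9 and 10. The members were 27.5% of these early-opened regions (95% interval 26.6% to 28.5%). Another 3044 (38.0%) had 25 to 100 normalised counts in iPSC and are called partly kept, and 2757 (34.4%) were below 25 and are called closed again. These 3 classes are defined by iPSC, so their iPSC levels follow from the definition. Day 12 was not used, but its level is not independent of the libraries that were. Over all autosomal regions its Pearson r was 0.841 with day 10 and 0.784 with iPSC. An order of the classes at day 12 is thus favoured by their definition.

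At day 12 most members were open. Of the 2204 members, 1899 were at 100 normalised counts or more, which was 86.2% (84.6% to 87.6%), against 23.3% of all autosomal regions. The lowest member had 36.9 normalised counts, 5 members were below 50 and none was below 25. The partly kept regions reached 100 at day 12 in 41.2% (39.5% to 43.0%) and the closed again regions in 19.7% (18.3% to 21.3%). Regions that met the limit of 100 in all 5 libraries of the rule, MEF day 0 included, reached it at day 12 in 98.9% (98.8% to 99.04%). The share of members open at day 12 was therefore between that of the lost regions and that of the regions open throughout. The other 305 members were below 100 at day 12.

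**Figure D2:**
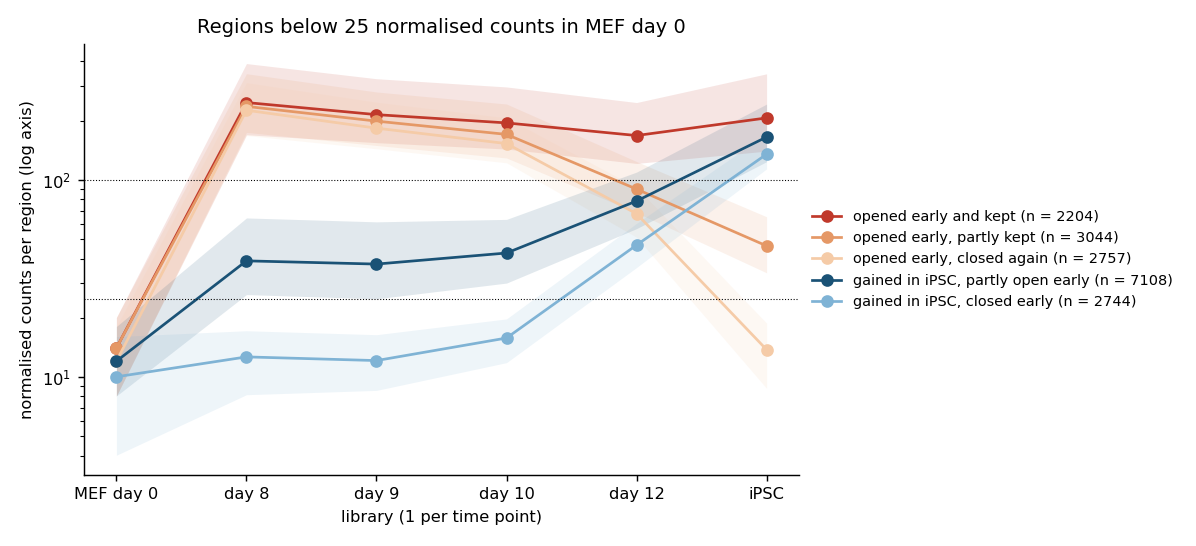
Median normalised counts per region (log axis) with quartile bands in the 6 libraries for 5 classes of autosomal regions below 25 in MEF day 0. The 3 classes that opened early start together at 226 to 248 at day 8 and are apart at day 12, at 168, 90.01 and 67.5.

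The classes lay closer together at day 8 than at day 12. All 3 were cut at 100 normalised counts at days 8, 9 and 10 but not at day 12, so the libraries are not alike in this respect. The median at day 8 was 248 normalised counts in the members, 237 in the partly kept and 226 in the closed again regions. At day 9 the medians were 215, 199 and 183, and at day 10 they were 195.1, 171 and 153. At day 12 the order was the same but the gap was wider, at 168, 90.01 and 67.5. Put as pairs, a member had more normalised counts than a closed again region in 55.3% of all pairs at day 8, 59.4% of them at day 9, 64.8% at day 10 and 91.2% at day 12. These shares describe regions of single libraries and carry no test. They were 54.8% to 56.9% at day 8 and 86.9% to 94.6% at day 12 with the upper limit set to 50 or 200 and with equal autosomal totals in place of the size factors.

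Read the other way, the day 12 level of an early-opened region went with its level in iPSC. Among the 901 early-opened regions below 50 normalised counts at day 12, 5 were members, which was 0.555% (0.180% to 1.29%), and 72.1% had closed again in iPSC. The share of members was 8.81% of those at 50 to 100, 40.6% of those at 100 to 200 and 75.1% of those at 200 to 400. It reached 93.6% (88.6% to 96.9%) of the 157 regions at 400 or more, of which 1 had closed again. Grouped by day 8, the share was 26.8% at 100 to 200, 24.3% at 200 to 400 and 37.1% (34.6% to 39.6%) at 400 or more. For the same 3 groups the share was 23.9%, 28.1% and 44.2% at day 9 and 22.5%, 32.3% and 50.9% at day 10. It was thus larger in each higher group of days 9, 10 and 12, and at day 8 only in the highest group.

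**Figure D3:**
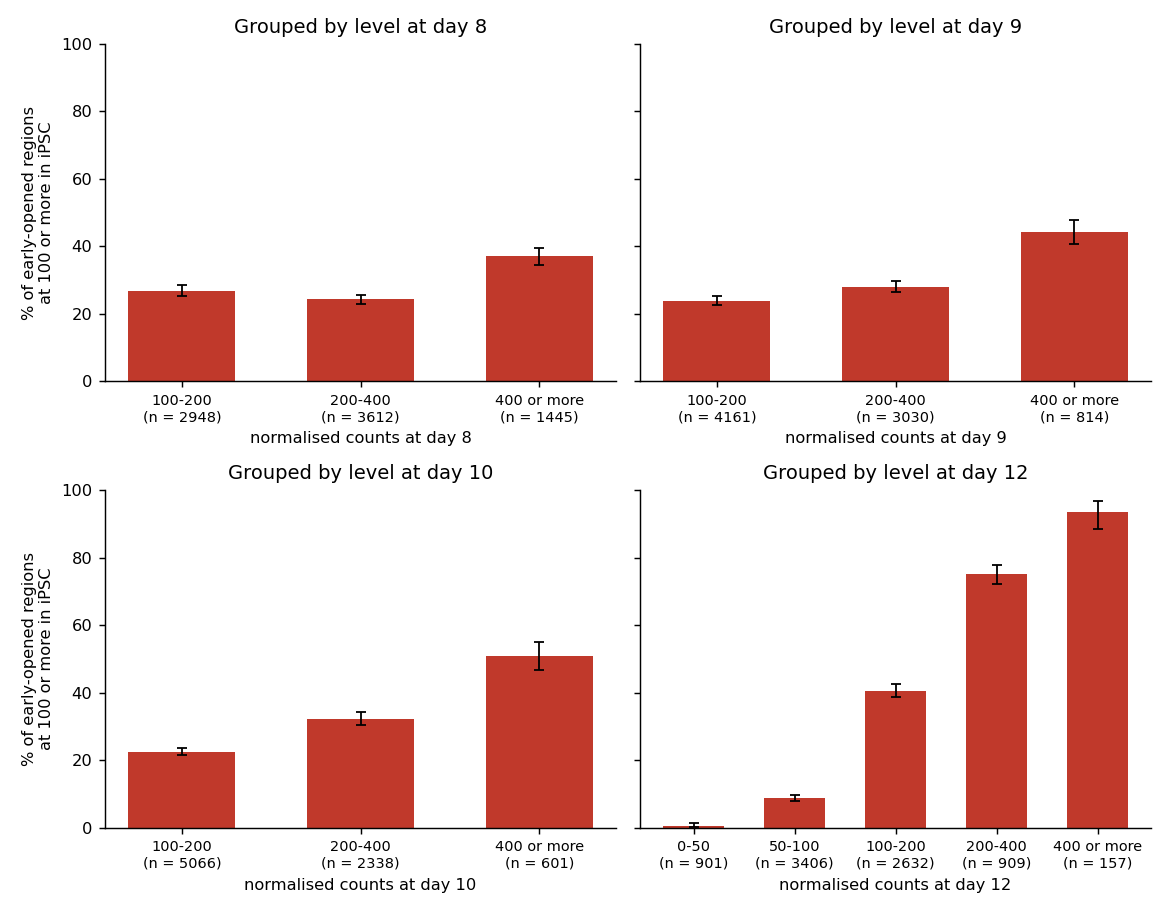
Share of the 8005 early-opened regions that were at 100 normalised counts or more in iPSC, grouped by their level at day 8, 9, 10 or 12 (1 panel each), with exact 95% binomial intervals. The share lies between 24.3% and 37.1% for the groups of day 8, 23.9% and 44.2% for day 9, 22.5% and 50.9% for day 10, and 0.555% and 93.6% for day 12, which alone has groups below 100.

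Within the members the intermediates drifted down. From day 8 to day 10 the median log2 difference was -0.32, against -0.07 over all autosomal regions. Of the 2204 members, 1732 (78.6%) were lower at day 10 than at day 8, against 55.2% of all autosomal regions. The differences in this paragraph were computed with the size factors only. A fall at each step, from day 8 to day 9 and from day 9 to day 10, was seen in 1013 members (46.0%), against 23.9% of all autosomal regions, and an increase at each step in 159 (7.21%), against 15.9%. The drift was steeper in the early-opened regions that were not kept, with a median log2 difference of -0.48 in the partly kept and -0.52 in the closed again regions. Few members changed by 2-fold or more in this interval, counting only regions whose higher value was 50 or more. The rule required 100 in each of these libraries, which leaves out low and strongly changing regions, so nothing is read from these counts against the background. From day 8 to day 9, 1 member was at least 2-fold higher, against 1.22% of all autosomal regions, and 7 were at least 2-fold lower, against 1.87%. From day 9 to day 10 the numbers were 0, against 0.502%, and 8, against 1.24%. From day 8 to day 10, 69 members (3.13%) were at least 2-fold lower, against 4.12% of all autosomal regions, and 5 were at least 2-fold higher, against 1.36%.

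Day 12 then lay below its neighbours in time. From day 10 to day 12, 191 members (8.67%) were at least 2-fold lower, against 7.3% of all autosomal regions, and 32 (1.45%) were at least 2-fold higher, against 5.64%. From day 12 to iPSC the order was turned, with 406 members (18.4%) at least 2-fold higher, against 13.3%, and 62 (2.81%) at least 2-fold lower, against 9.52%. These splits depended on the scaling between libraries. The members were kept as chosen while the scaling was changed to equal totals of autosomal reads. This moved the log2 difference from day 10 to day 12 by 0.14 and that from day 12 to iPSC by -0.31. The 2-fold lower members then made up 63.7% of those changed from day 10 to day 12, in place of 85.7%, with 100 lower and 57 higher. At that scaling 4.54% of members were lower, against 5.64% of all autosomal regions, and 2.59% were higher, against 9.02%, so that the share of lower members was above the background under the size factors and below it under equal totals. From day 12 to iPSC the 2-fold higher members made up 56.3% in place of 86.8%, with 182 higher and 141 lower. These were 8.26% of members higher, against 7.71% of all autosomal regions, and 6.40% lower, against 13.97%, so that the share of higher members was then near the background. The median difference of the members had the same sign under both scalings, with a log2 value of -0.31 or -0.16 from day 10 to day 12 and of 0.41 or 0.10 from day 12 to iPSC. The median over all autosomal regions changed sign, from -0.07 to 0.07 and from 0.10 to -0.20. With the size factors, the regions open in all 5 libraries of the rule had medians of -0.02 and 0.36. The higher level in iPSC than at day 12 was therefore not particular to the members.

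A level at day 12 below both day 10 and iPSC was found in 1083 members (49.1%), against 18.4% of all autosomal regions. Only 94 members (4.26%) were above both, against 12% of all autosomal regions. Since the limit of 100 was set on day 10 and iPSC and not on day 12, the choice itself favours a low day 12. The regions open in all 5 libraries of the rule carry the same limits but were further above them, with a median of 348 at day 10. They were below both in 36.2% and above both in 3.68%, the latter near the 4.26% of the members. For the same sets of regions, equal autosomal totals gave other shares below both. These were 29.9% in the members, 11.5% in the regions open in all 5 libraries and 10.3% over all autosomal regions. A 2-fold gap to both neighbours was rare, with 29 members (1.32%), against 0.1% of all autosomal regions.

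The share of autosomal reads amounts to the scaling to equal autosomal totals, applied to the summed reads. The members took 0.0583% of the autosomal reads in MEF day 0 and 2.72% at day 8 (2.717% to 2.73%). The share was 2.57% at day 9, 2.31% at day 10 (2.308% to 2.32%) and 2.06% at day 12 (2.057% to 2.07%), and 2.36% in iPSC (2.351% to 2.36%). Day 12 was lowest among the last 5 libraries. The partly kept regions took 2.67% at day 10, 1.48% at day 12 and 0.580% in iPSC, and the closed again regions 2.10%, 0.997% and 0.137%. In the regions open in all 5 libraries of the rule the share was 47.1% at day 10, 49.0% at day 12 and 50.9% in iPSC, with no dip at day 12.

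The 5 members with the lowest level at day 12 were chosen by that level and not by the depth of the dip. The intervals of their ratios do not allow for this choice. The region in row 52621 on chromosome 13 had 3, 216, 206, 166, 41 and 92 reads in the order of the libraries given above. Its normalised count in iPSC was 3.12 times that of day 12 (exact 95% interval 2.14 to 4.63). Row 170636 on chromosome 6 had 6, 270, 278, 140, 51 and 136 reads in the same order, and a ratio of iPSC to day 12 of 3.71 (2.67 to 5.23). In both regions day 12 was below every other library from day 8 on, as this choice requires. The other 3, row 115902 on chromosome 2, row 150943 on chromosome 4 and row 202684 on chromosome 8, had 51 to 54 reads at day 12 and 84 to 102 in iPSC, with ratios of 2.29, 2.68 and 2.35.

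Although all members were open both early and in iPSC, the balance between these stages differed. Against the mean log2 level of days 8, 9 and 10, iPSC was at least 2-fold higher in 345 members (15.7%), at least 2-fold lower in 373 (16.9%) and within 2-fold in 1486 (67.4%). Over all autosomal regions 22.4% were higher and 19.2% lower. Against day 10 alone, iPSC was at least 2-fold higher in 402 members (18.2%), against 22.1% of all autosomal regions, and at least 2-fold lower in 280 (12.7%), against 17.9%. All these libraries were used in the choice of members, so the counts are a description. The levels of days 8, 9 and 10 went together across members, with a Pearson r of 0.922 between days 8 and 9 and 0.911 between days 9 and 10. Between day 8 and iPSC the r was 0.153, and between day 12 and iPSC it was 0.659, against 0.448 and 0.784 over all autosomal regions. The members are regions of the same 6 libraries and no independent replicates, and their range is cut by the limits.

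Members higher in iPSC had lower levels at days 8 to 10 than those lower in iPSC, as their definition favours, with medians of 167 normalised counts (day 8), 156 (day 10), 229 (day 12) and 500.0 (iPSC). Those lower in iPSC had 481, 349.9, 199.8 and 133 in the same order. In both groups the median of day 12, which was not used, lay between day 10 and iPSC. In the 1486 members within 2-fold it did not, with 182 at day 10, then 151 and, in iPSC, 201.

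The part of the way covered by day 12 was measured as the log2 difference of day 12 from the mean of days 8 to 10, in percent of the log2 difference of iPSC from that mean. The median was 69.5% in the members lower in iPSC and 24.5% in those higher in iPSC. More than 50% of the way was covered by 279 of 373 members (74.8%) in the former and by 48 of 345 (13.9%) in the latter. With equal autosomal totals the medians were 53.8% and 39.2%, and with equal totals over the regions open in all 5 libraries 55.8% and 34.5%. Among the regions open in all 5 libraries of the rule the medians were 47.6% for 1579 lower and 40.5% for 4599 higher regions, and with equal autosomal totals the order was turned, at 35.0% and 57.7%. The groups were called once, with the size factors, and kept for the other scalings. For these groups the order in the members was the same under the 3 scalings, but its size was not. With equal autosomal totals 53.9% of the lower and 34.8% of the higher members were past 50% of the way. The mean of days 8 to 10 enters both differences and the definition of the groups, so the order is a description.

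**Figure D4:**
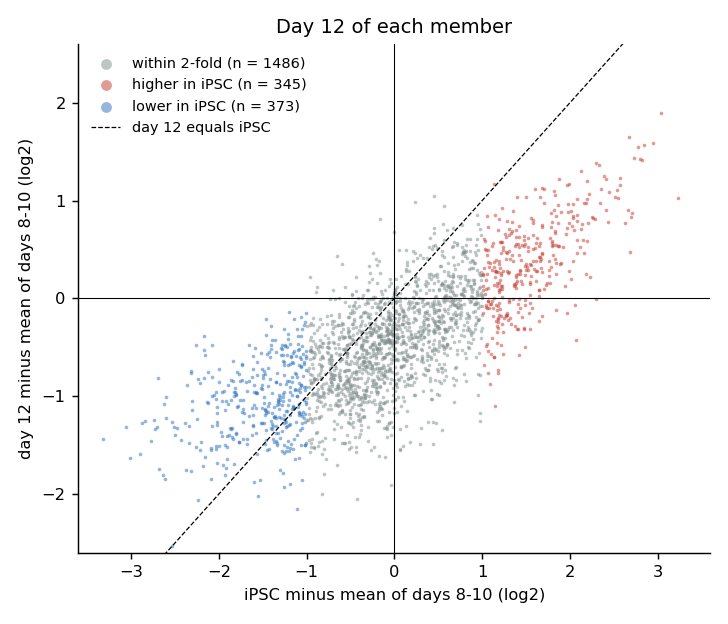
Log2 difference of day 12 from the mean of days 8 to 10 (vertical axis) against that of iPSC (horizontal axis) for the 2204 members, coloured by whether iPSC was at least 2-fold higher, within 2-fold or at least 2-fold lower. At day 12 the median member had covered 69.5% of the way to iPSC among the 373 lower and 24.5% among the 345 higher members.

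The extremes of both groups are given next. The region in row 170221 on chromosome 6 had the largest ratio of iPSC to the mean of days 8 to 10, at 9.39. It had 12, 113, 141, 170, 254 and 842 reads in the order of the libraries, so that it was just above the limit at days 8 and 9. The regions in row 128131 on chromosome 2, row 1917 on chromosome 1, row 25630 on chromosome 10 and row 24246 on chromosome 10 followed, with ratios of 7.93, 7.54, 7.12 and 7.10 and with 415 to 706 reads at day 12. In all 5, iPSC was above day 12, by 2.22 to 4.62 times.

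At the other end, the region in row 114482 on chromosome 2 had 10, 1374, 1290, 1141, 414 and 80 reads. With 80 reads, which are 100.3 normalised counts, it was only just a member, and its ratio of iPSC to the mean of days 8 to 10 was 0.0981. Row 61123 on chromosome 13 had 4, 1660, 1649, 1335, 549 and 117 reads and a ratio of 0.118. Row 13048 and row 6042 on chromosome 1 and row 122158 on chromosome 2 had ratios of 0.122, 0.130 and 0.134. In these 5 regions the log2 difference from day 10 to day 12 was -1.62 to -1.09, and iPSC was below day 12 in each.

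The 5 members with the highest level at day 12 included regions of both kinds. Row 15688 and row 19046 are described above. The region in row 181461 on chromosome 7 had 7, 888, 1078, 873, 1016 and 1422 reads, and that in row 165212 on chromosome 5 had 6, 572, 891, 756, 917 and 1386. Both were at their highest in iPSC. Row 2225 on chromosome 1 had 10 reads in MEF day 0 and 2272, 2135, 1786, 842 and 321 in the later libraries, so that it was among the highest at day 12 although its level there was far below that of day 8.

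Seen from the finished iPSCs, most regions gained since MEF day 0 had not been open at 100 or more throughout days 8 to 10. Of the 12056 autosomal regions below 25 normalised counts in MEF day 0 and at 100 or more in iPSC, the members were 18.3% (17.6% to 19.0%). Another 7108 (59.0%) were partly open at days 8 to 10, with at least 25 normalised counts in 1 or more of these libraries but not 100 in all 3, and 2744 (22.8%) were below 25 in all 3. The order of the smaller classes depended on the scaling, since with equal autosomal totals the members were 23.4% and the regions closed early 13.7%. The median level in iPSC was 207 in the members, 165 in the regions partly open and 135 in those closed early. At day 12 the members were at a median of 168, the regions partly open early at 78.3 and those closed early at 46.8. The last 2 groups were thus higher at day 12 than at day 10, where their medians were 42.6 and 15.8, whereas the members were lower. The definitions favour this contrast, so it is a description. Members had to reach 100 at day 10, while the other groups were held below it at days 8 to 10 in part or throughout. In iPSC the members took 2.36% of the autosomal reads, the regions partly open early 5.55% and those closed early 1.59%.

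The members were spread over all 19 autosomes. Their share of the regions of a chromosome ran from 0.786% on chromosome 12 (74 of 9419 regions, 0.617% to 0.985%) to 1.25% on chromosome 17 (119 of 9528, 1.04% to 1.49%), about the 1.01% of all autosomal regions. Between 75.7% on chromosome 12 and 90.4% on chromosome 5 of the members of a chromosome were at 100 or more at day 12. The X chromosome, which the rule leaves out, had 74 regions with the same values among its 5357, or 1.38% (1.09% to 1.73%). Scaled to equal autosomal totals, the autosomes had 1.74% to 2.53% and the X chromosome 2.26%, inside that range. The 74 X-linked regions had medians of 213 normalised counts (day 8), 167 (day 10), 162 (day 12) and 329 (iPSC). The median in iPSC was above those of all 19 autosomes, the highest of which had 241 on chromosome 2, while 79.7% (68.8% to 88.2%) were at 100 or more at day 12.

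**Figure D5:**
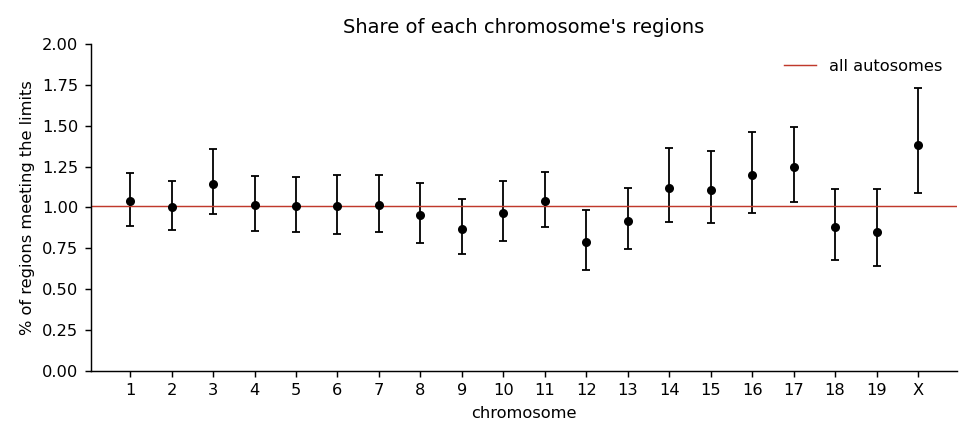
Share of the regions of each chromosome that met the limits, with exact 95% binomial intervals, and the share over all autosomes as a line. The autosomes lie between 0.786% and 1.25%, and the X chromosome, outside the rule, at 1.38%.

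Members tended to follow each other in the table. A member was followed by another member in the next row of its chromosome in 81 cases, or 3.68% (2.93% to 4.55%), against 1.01% of all autosomal regions. Within 5 rows on either side 20.1% of members had another member, against 9.21% of all autosomal regions. Most members nevertheless stood alone, since 2048 had no member in the row before or after, 142 were in 71 pairs, 6 in 2 runs of 3 and 8 in 2 runs of 4. The rows that were next to a member but no members themselves had medians of 30.1 normalised counts (MEF day 0), 60.6 (day 8), 52.2 (day 12) and 57.6 (iPSC). At 50 rows distance the medians were 40.2, 43.4, 43.2 and 42.6, and over all autosomal regions that were no members 42.2, 44.3, 41.4 and 40.1. Of all rows next to a member, 6.19% were gained in iPSC after being partly open early, against 3.26% of all autosomal regions, 2.54% were partly kept, against 1.39%, and 1.41% were closed again, against 1.26%. Row order was taken as given, and distances in bases are not analysed here.

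The runs of 4 held regions of different courses. In rows 181154 to 181157 on chromosome 7 iPSC had 138, 695, 353 and 362 reads and day 8 had 294, 1139, 585 and 208. The last region was thus the lowest of the run at day 8 but not in iPSC, where it was close to row 181156. In rows 21812 to 21815 on chromosome 10 the reads at day 8 were 251, 437, 284 and 483, and those in iPSC were 216, 121, 238 and 123, so that rows 21812 and 21814 were the lower pair at day 8 and the higher pair in iPSC. Over the 81 pairs of adjacent members, the log2 difference between iPSC and days 8 to 10 had the same sign in 45 pairs, and its Pearson r was 0.239.

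The limits cut through a continuous range. Members with their lowest value of the rule under 110 numbered 388, and 432 regions met the other conditions with their lowest value at 90 or more but below 100. The members nearest inside were tied at 80 reads or 100.3 normalised counts in iPSC. Row 29819, row 33963 and row 40819 on chromosome 11 come first among them in row order, and further members share this value. The regions nearest outside, row 57340 on chromosome 13, row 128181 on chromosome 2 and row 166675 on chromosome 5, had 140 reads or 99.9 normalised counts at day 9. For MEF day 0, 216 members were at 12 reads, or 24.1 normalised counts, and 156 regions at 13 reads, or 26.1, met all other conditions. Row 129, row 203 and row 213 on chromosome 1 were at 12 reads, and row 85, row 2965 and row 5841 on chromosome 1 at 13.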

How the data were processed

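Chromatin accessibility was measured by Omni-ATAC in 6 libraries, 1 per time point, grouped by the time point in the labels. The authors ran paired-end reads through the ENCODE ATAC-seq pipeline on GRCm38/mm10, joined alignments and peaks with DiffBind (version 3.8) and deposited log2 values of counts divided by DESeq2 size factors (version 1.21.22, both from the submitters' processing notes), not split by allele. All 6 columns were used.

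Normalised counts were 2 to the power of the deposited log2 value minus 1. They were whole multiples of 1 read in 100% of values (tolerance 0.001 reads), which gave back reads per region. Intervals take reads as independent molecules and cover counting error only. The lowest recovered value was 1 read. Size factors (0.498 to 1.40) assume that the typical region does not change, and MEF day 0, with the smallest, had only 49.8 reads at the limit of 100. Fold changes were differences of log2(normalised count + 1), which understate low levels. A change was called at 2-fold where the higher value was 50 or more. Regions were named by rule: the 5 members with the highest weakest value over days 8, 9, 10 and iPSC, the highest or lowest day 12, and the largest or smallest ratio of iPSC to days 8 to 10, the 3 nearest each limit, and the longest runs. Regions on chromosomes 18 and X were left out of this naming. Members tied just inside a limit were named in row order. The members, classes and lists were chosen with earlier results of these data known. The selection was also run on simulated data with planted regions far from the limits. That run cannot show how regions near the limits are treated. Alternatives were other scalings, limits, folds, pseudocounts and reads thinned at random (seed 1). Python 3.11.15, numpy 2.4.6, pandas 2.3.3 and scipy 1.17.1 were used.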

Additional observations from a re-analysis of the deposited data

How the results depend on the processing

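The number of members depended on the limits and the scaling, and each value rests on 1 library per time point. In place of 2204 there were 4484 with equal autosomal totals, 6987 and 565 with an upper limit of 50 and 200, and 602 and 3957 with a lower limit of 10 and 50. Quantile normalisation (1674), thinned reads (1804) and a limit on day 12 (1899) stayed within 1.5 times, and a minimum mean of 10 normalised counts removed none. The share open at day 12 was taken among the members chosen anew at each setting. It was 94.3% with equal autosomal totals and 91.9% with quantile normalisation. With an upper limit of 50 or 200, applied to day 12 too, it was 90.5% or 80.2%.

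At 1.5-fold, 136 members were higher and 683 lower from day 10 to day 12 (6.17% and 31.0%, against 10.8% and 15.3% of all autosomal regions), 891 and 177 from day 12 to iPSC (40.4% and 8.03%, against 23.5% and 12.1%), and 584 and 624 in iPSC against days 8 to 10 (26.5% and 28.3%, against 28.5% and 21.9%). At 4-fold the numbers were 0 and 1 (background 0.670% and 0.237%), 11 and 0 (1.34% and 4.69%), and 62 and 68 (10.5% and 12.5%). For the members chosen with the size factors, equal autosomal totals gave 57 and 100 (background 9.02% and 5.64%), then 182 and 141 (7.71% and 13.97%). For iPSC against days 8 to 10 they gave 293 and 453 (20.4% and 21.7%). A pseudocount of 10 kept all 4 counts it was applied to within 1.5 times.

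The members' share of early-opened regions was 36.8% with an upper limit of 50, 21.7% with 200 and 30.3% with equal autosomal totals, and their share of regions gained in iPSC was 26.1%, 13.6% and 23.4%, beside 33.4%, 10.1% and 13.7% for the regions closed early. Over all reads in regions the members took 2.68%, 2.52%, 2.274% and 2.02% on days 8, 9, 10 and 12 and 2.271% in iPSC, so that iPSC was slightly below day 10 (2.274%) and not above it as over autosomal reads. The share of regions meeting the rule with equal autosomal totals was 1.74% on the lowest and 2.53% on the highest autosome and 2.26% on the X chromosome, inside the range of the autosomes. A member lay within 5 rows for 20.1% of members. The alternatives for the day 12 dip, the way covered by day 12, the pairs of kept and closed regions and the classes gained in iPSC were chosen after the data were seen. Of the 2204 members chosen with the size factors, 659 had day 12 below both neighbours with equal autosomal totals. With equal totals over regions open in all 5 libraries the number was 661. The causes of these differences were not tested. No paired analysis was possible because each time point has 1 library.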
